A study of Mus musculus with 24 samples.

Results

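The genes described here are 10 genes of cortical GABA interneurons and their neuropeptides: Gad1, Gad2, Slc32a1, Sst, Pvalb, Vip, Npy, Cck, Calb2 and Lhx6. They were chosen by symbol, and all 10 are found once among the 33000 genes of the count table. RNA of the frontal cortex was measured in 3 WT mice and 3 GFAP-IL6 mice of the C57BL/6 strain, all 3 months old, by 3'Pool-seq, which primes mRNA at its poly(A) tail and reads the 3' end of each transcript. The GFAP-IL6 mice were homozygous for a transgene that places Il6 under the promoter of Gfap, so the cytokine is made by astrocytes, not by the interneurons themselves. Each mouse gave 4 libraries, made from 2 ng or from 1 ng of cDNA in each of a set A and a set B, and what separates the sets is not stated in the labels. No treatment of either genotype and no sex of the mice was given in the sources used here.

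GABA is made from glutamate by the 2 glutamate decarboxylases and is loaded into synaptic vesicles by the vesicular transporter encoded by Slc32a1, so these genes mark inhibitory neurons as a class. The other genes divide interneurons into types: fast-spiking cells make parvalbumin (Pvalb), many dendrite-targeting cells make somatostatin (Sst), and others make Vip, calretinin (Calb2), cholecystokinin (Cck) or neuropeptide Y (Npy). Lhx6 is a transcription factor kept in interneurons that arise in the medial ganglionic eminence, which include the Sst and Pvalb types. Cck is also transcribed in many pyramidal cells, so its level is not that of interneurons alone. In bulk tissue, fewer cells of a type and less RNA per cell cannot be told apart.

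Regulatory sequence motifs were looked for in the promoters, from 250 bases before to 50 bases after each start site. RefSeq promoter windows on build GRCm38.p6 were at hand for 9 of the 10 genes, Calb2 being the exception, with 3 windows for Lhx6 and 2 for Pvalb. IL-6 signals to the nucleus through STAT3, and the STAT palindrome TTCNNNGAA was in 0 of the windows of these 9 genes, and in 8.3% of 32851 promoters in all. The cAMP response element TGACGTCA, which is bound by CREB and through which neuronal activity acts on peptide genes, was in the Sst window, and in 1.79% of all promoters. Its half-site TGACG, which overlaps the full element, was in the windows of Sst, Vip, Cck and Gad2, and in 20.81% of all promoters. Both strands were searched. The windows of the 3 peptide genes with a match are shown 5' to 3' on the strand of the gene, with the element or half-site in capitals. The window of Gad2 is not shown. A match is a stretch of letters and not evidence of binding.
Sst, chr16:23890795-23891094, minus strand, full element beginning at position -48: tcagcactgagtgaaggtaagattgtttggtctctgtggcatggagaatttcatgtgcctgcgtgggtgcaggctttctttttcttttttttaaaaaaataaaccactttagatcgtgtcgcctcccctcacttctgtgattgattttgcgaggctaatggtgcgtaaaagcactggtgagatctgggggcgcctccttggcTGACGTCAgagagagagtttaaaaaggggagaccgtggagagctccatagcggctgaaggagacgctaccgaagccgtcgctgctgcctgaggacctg
Vip, chr10:5638968-5639267, plus strand, half-site at position -79: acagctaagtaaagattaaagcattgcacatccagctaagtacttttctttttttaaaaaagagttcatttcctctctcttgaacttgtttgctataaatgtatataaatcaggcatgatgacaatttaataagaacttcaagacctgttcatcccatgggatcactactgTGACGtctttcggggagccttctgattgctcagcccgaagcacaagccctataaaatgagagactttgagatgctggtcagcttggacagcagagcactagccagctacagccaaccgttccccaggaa
Cck, chr9:121495645-121495944, minus strand, half-site on the other strand at position -47: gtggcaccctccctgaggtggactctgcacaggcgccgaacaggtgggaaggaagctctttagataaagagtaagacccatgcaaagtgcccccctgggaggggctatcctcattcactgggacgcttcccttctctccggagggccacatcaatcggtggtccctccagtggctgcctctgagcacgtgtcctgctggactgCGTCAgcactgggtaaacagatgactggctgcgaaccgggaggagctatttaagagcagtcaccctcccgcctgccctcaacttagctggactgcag

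The libraries held between 1524165 and 12256374 counts on genes, and the 4 libraries of a mouse together between 7852743 (WT 3) and 37582644 (GFAP-IL6 3). Since 1 RNA sample served for all libraries of a mouse, mice and not libraries were the replicates, and levels are CPM, the counts per 1000000 counts of the library, scaled by TMM, a factor that corrects library totals for differences in composition. The genotypes were apart in Il6. It had 0 to 5 summed counts (0 to 0.26 CPM) in the WT mice and 30 to 163 (1.58 to 4.23 CPM) in the GFAP-IL6 mice. Gfap also rose, to 80.9, 102 and 146 CPM from 20.3, 23.5 and 16.01 CPM (log2 fold change 2.44, edgeR quasi-likelihood adjusted p = 1.59e-06). The tissue was rich in neurons by its markers, with Snap25 between 3206 and 4036 CPM in each mouse. The mice also differed in tissue from outside the cortex. The choroid plexus gene Ttr was at 4038 CPM in WT 3 and at 743 CPM in GFAP-IL6 1, the highest mouse of each genotype, and between 74.6 and 423 CPM in the other 4. Those 2 mice also had the lowest totals. The striatal neuropeptide gene Penk was at 167 CPM in WT 2 and between 67.2 and 99.1 CPM in the other 5.

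Between genotypes, none of the 10 genes passed the test. With the libraries of each mouse summed, edgeR's quasi-likelihood test called 263 of 14621 genes (1.80%) at an adjusted p under 0.05 (Benjamini-Hochberg), and 180 (1.23%) were also beyond a log2 fold change of 1 and counted as differentially expressed genes (DEGs). Of the 10 interneuron and neuropeptide genes, 0 were called, 0 had an unadjusted p under 0.05, and 0 were called by DESeq2. Over all genes, 1279 of 14621 had an unadjusted p under 0.05 in edgeR's test, and DESeq2 called 275. At a background of 1.80%, a count of 0 among 10 genes is not a result about these genes. Their log2 fold changes ran from -0.18 (Sst) to 0.25 (Lhx6), 7 of the 10 being below 0, with a median of -0.083 against -0.0069 for all genes tested. All 10 of the 95% intervals of the fold changes lay between -0.41 and 0.68 and held 0. A change as large as the DEG threshold was therefore outside the interval of each gene. The WT and GFAP-IL6 mice overlapped for each of the 10 genes. The share of all genes with such an overlap was not computed, so it is not read as a result about these genes. The exact permutation test over mice (two-sided, 3 against 3, where the smallest p is 0.1) gave p between 0.2 and 1.0.

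**Figure D1:**
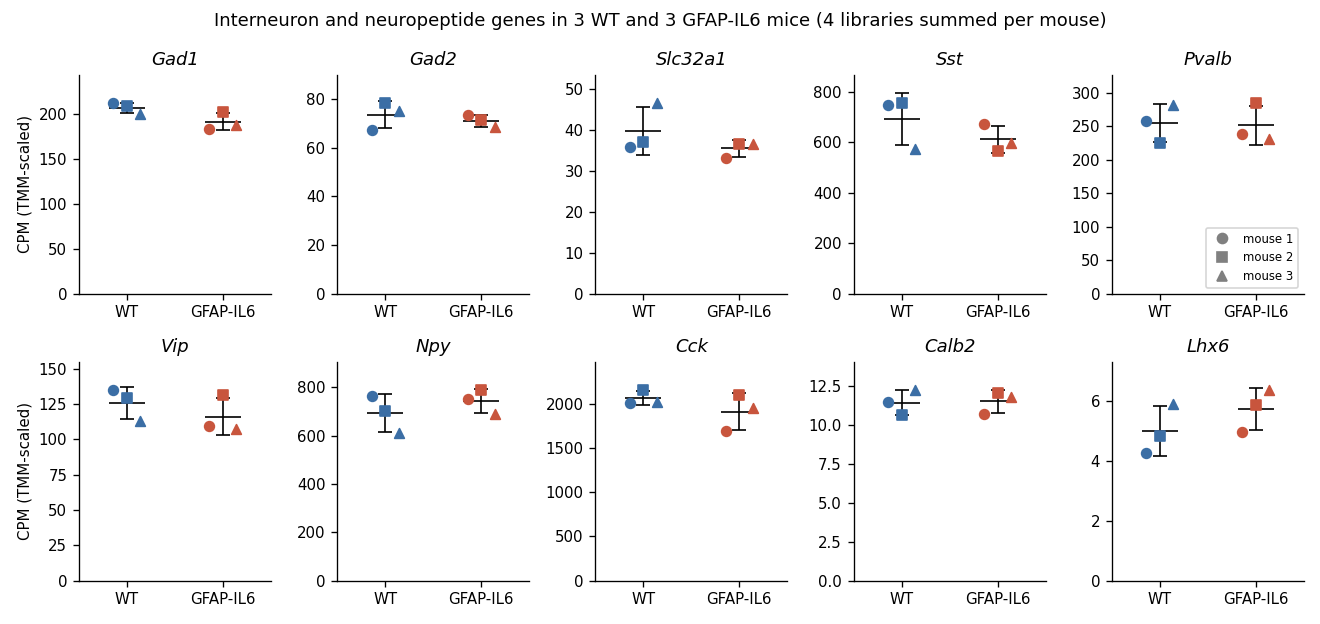
TMM-scaled CPM of the 10 genes in each mouse (blue, WT; red, GFAP-IL6; marker shape, mouse number), with the mean and SD of 3 mice as black bars, on axes that start at 0. The mice of both genotypes overlap in every panel, which is not read as a result about these genes. The WT mice lie between 573 and 755 CPM for Sst.

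The enzymes and the transporter that define a GABA neuron came first. Gad1 (ENSMUSG00000070880.8, chr2:70553072-70602014 of mm10, plus strand) was at 211, 208 and 200.003 CPM in WT 1 to 3 and at 183, 202 and 188 CPM in GFAP-IL6 1 to 3. The genotypes overlapped by a single pair, GFAP-IL6 2 over WT 3. The log2 fold change was -0.11 (SE 0.080, adjusted p = 0.778 in edgeR's quasi-likelihood test), with a 95% interval from -0.28 to 0.058. Gad2 (ENSMUSG00000026787.3, chr2:22622205-22693874, plus strand), the decarboxylase concentrated at nerve terminals, was at 67.5, 78.3 and 75.3 CPM in WT and at 73.3, 71.3 and 68.4 CPM in GFAP-IL6 mice. Here the GFAP-IL6 mice lay inside the WT range, and the log2 fold change was -0.055 (SE 0.089). Slc32a1 (ENSMUSG00000037771.11, chr2:158610767-158615748, plus strand) was at 36.0, 37.1 and 46.6 CPM in WT and at 33.2, 36.7 and 36.7 CPM in GFAP-IL6 mice. Its highest value was that of WT 3 and the remaining 5 mice lay close together, with a log2 fold change of -0.15 (SE 0.11). The 3 genes share chromosome 2 with Lhx6. An antisense gene overlaps the 5' part of Gad1 and another that of Slc32a1, but they had 7 and 0 counts in the 24 libraries together and neither reaches the last exon.

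Among the neuropeptide genes, Sst, Vip and Cck had negative fold changes and Npy a positive one. Sst was the most negative of them with all mice, but without WT 1 Cck was (-0.13 against -0.12 for Sst), and without GFAP-IL6 2 Vip (-0.22) and Cck (-0.18) were more negative than Sst (-0.13). Sst (ENSMUSG00000004366.3, chr16:23889573-23890958, minus strand) was at 749, 755 and 573 CPM in WT and at 672, 567 and 597 CPM in GFAP-IL6 mice. WT 1 and WT 2 were above every GFAP-IL6 mouse, whereas WT 3 was below 2 of them. The mean was 692 ± 103 CPM in WT and 612 ± 54.4 CPM in GFAP-IL6 mice (SD, n = 3 each), a log2 fold change of -0.18 (SE 0.11, adjusted p = 0.729, edgeR), with an interval from -0.41 to 0.053.
Npy (ENSMUSG00000029819.6, chr6:49822710-49829507, plus strand) was at 765, 703 and 609 CPM in WT and at 751, 788 and 691 CPM in GFAP-IL6 mice. WT 3 was the lowest mouse for Npy, and the log2 fold change was 0.10 (SE 0.097, adjusted p = 0.861, edgeR), or 0.022 without WT 3. Vip (ENSMUSG00000019772.4, chr10:5639218-5647617, plus strand) was at 135, 129 and 113 CPM in WT and at 109.6, 131 and 107 CPM in GFAP-IL6 mice, with a log2 fold change of -0.12 (SE 0.099). Its values were spread alike within each genotype. Cck (ENSMUSG00000032532.6, chr9:121489824-121495694, minus strand) was at 2011, 2155 and 2024 CPM in WT and at 1688, 2098 and 1949 CPM in GFAP-IL6 mice. GFAP-IL6 1 was the lowest mouse for Cck, and the log2 fold change was -0.11 (SE 0.093).

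The calcium-binding proteins and the transcription factor completed the genes. Pvalb (ENSMUSG00000005716.14, chr15:78191114-78206400, minus strand) was at 258, 224 and 282 CPM in WT and at 239, 284 and 231 CPM in GFAP-IL6 mice. The means were 254 ± 28.8 and 251.1 ± 28.7 CPM (SD, n = 3 each), and the log2 fold change of -0.017 (SE 0.10) was the smallest in size of the 10. Calb2 (ENSMUSG00000003657.8, chr8:110137502-110168210, minus strand) was at 11.4, 10.6 and 12.2 CPM in WT and at 10.7, 12.04 and 11.8 CPM in GFAP-IL6 mice, with a log2 fold change of 0.028 (SE 0.14). Lhx6 (ENSMUSG00000026890.17, chr2:36081953-36105408, minus strand) was at 4.27, 4.82 and 5.91 CPM in WT and at 4.96, 5.85 and 6.36 CPM in GFAP-IL6 mice. Its log2 fold change of 0.25 was the largest in size but also had the largest error (SE 0.20, interval from -0.18 to 0.68). Lhx6 had as few as 5 and a median of 19.5 counts per library, so a difference in it was not detectable at this depth unless large.

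The direction held across the 4 library sets for some genes and not for others. Tested within a set of 6 libraries, 1 per mouse, edgeR called 125 (1.03%) of the 12190 genes tested in 2 ng set A, 132 of 12233 (1.08%) in 2 ng set B, 136 of 12407 (1.10%) in 1 ng set A and 140 of 12974 (1.08%) in 1 ng set B. In each of the sets 0 of the 10 genes were called. Of these tests, of 10 genes in each of 4 sets, 3 had an unadjusted p under 0.05 in edgeR's test. They were Lhx6 in 2 ng set B (p = 0.0372) and Sst (p = 0.0499) and Vip (p = 0.0384) in 1 ng set A. Over all genes tested, 925, 828, 911 and 905 had an unadjusted p under 0.05 in the sets in the order above. The 3 are not read as a result about these genes. Gad1, Sst, Vip and Cck were below 0 in 4 of 4 sets, and Npy and Lhx6 were above 0 in 4 of 4. The log2 fold change of Sst ran from -0.21 to -0.14 and that of Npy from 0.059 to 0.15 over the sets, whereas that of Lhx6 ran from 0.018 to 0.82. All sets hold the same 6 mice, and an equal sign in 4 sets repeats the measurement and not the mice. No dependence of the genotype difference on how the library was made was called. The interaction of genotype with cDNA amount had 0 of 13961 genes called (0.00%, 538 at an unadjusted p under 0.05) and that with library set 0 of 14167 (0.00%, 597 unadjusted), and for the 10 genes the lowest unadjusted p was 0.182 and 0.176.

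**Figure D2:**
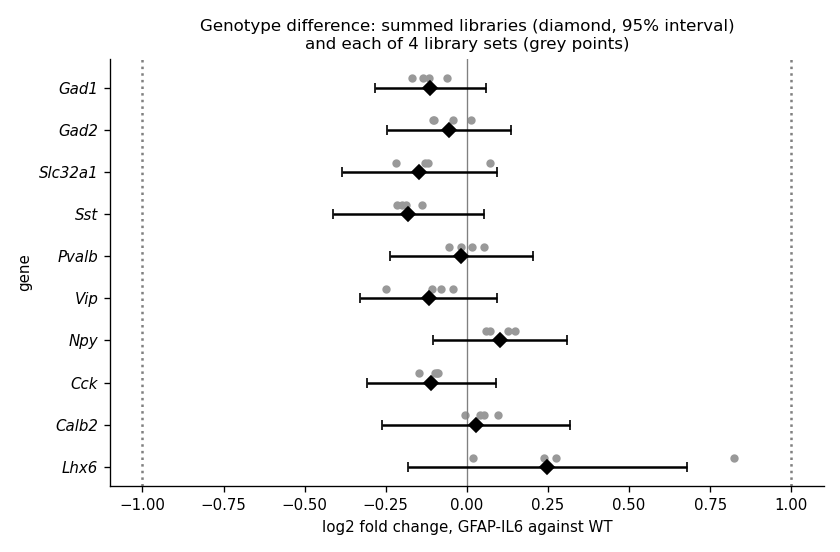
Log2 fold change of each gene, GFAP-IL6 against WT, from the summed libraries (black diamond with its 95% interval) and from each of the 4 library sets alone (grey points); dotted lines mark the DEG threshold of 1. Each interval holds 0, and the grey points of Lhx6 are the most scattered, from 0.018 to 0.82.

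Levels between genes differed far more than levels between genotypes. Since the method counts about 1 read position per transcript, CPM itself stands for transcript abundance, and the order was also taken per kilobase of the deposited gene length. On the CPM scale the order of the mean levels over 6 mice was Cck (1987), Npy (718), Sst (652), Pvalb (253), Gad1 (199), Vip (121), Gad2 (72.3), Slc32a1 (37.7), Calb2 (11.5) and Lhx6 (5.36). Npy and Sst overlapped between mice, and every other pair of neighbours in this order was separate in all 6 mice. This is the order in the summed libraries. In 2 ng set A alone, Gad1 (mean 286 CPM) was above Pvalb (mean 235 CPM). On the CPM per kilobase scale Cck (2901), Npy (1268), Sst (1089) and Pvalb (243) kept the first 4 places. Vip (79.1) then came before Gad1 (45.5), and Slc32a1 (13.5) before Gad2 (12.6), with an overlap between the last 2, since the deposited lengths of Gad1 (4365 nt) and Gad2 (5744 nt), which cover all exons of a gene, are the longest. Calb2 (8.01) and Lhx6 (1.45) stayed last. The peptide genes Cck, Npy and Sst thus stood at the top on both scales, Vip did not, and the transcription factor stood at the bottom.

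Once the mean of each library set was removed, mice differed from each other in the peptide and parvalbumin genes more than the libraries of a mouse did. On the log2 CPM scale, the SD between mice of a genotype was 0.18 for Sst and 0.17 for Pvalb, and the SD of what remained between the 4 libraries of a mouse was 0.052 and 0.049. The means of the 4 sets themselves had an SD of 0.047 for Sst and 0.083 for Pvalb, below the SD between mice, but of 0.155 for Npy and 0.135 for Cck, above their SD between mice of 0.132 and 0.12. The intraclass correlation of the libraries of a mouse, with set means removed, was 0.94 for Cck, 0.92 for Sst, 0.92 for Pvalb, 0.88 for Npy and 0.72 for Vip, each from 24 libraries of 6 mice. It was 0.35 for Gad1, 0.297 for Slc32a1, 0.12 for Gad2, 0.060 for Lhx6 and -0.013 for Calb2. The libraries of a mouse therefore repeated its Sst and Pvalb level closely, and its Calb2 and Lhx6 level hardly at all. For Sst, WT 1 and WT 2 were the top mice in all 4 sets, and WT 3, GFAP-IL6 2 and GFAP-IL6 3 held the lowest 3 places in all 4. For Pvalb, WT 2 was the lowest mouse in all 4 sets, and GFAP-IL6 2 or WT 3 was the highest. The 2 genes mark separate interneuron types, and WT 3 and GFAP-IL6 2 were low in Sst and high in Pvalb. The part of tissue from outside the cortex in these differences was not tested. With WT 3 and GFAP-IL6 1 left out, the mice of highest Ttr in their genotype, Sst was called lower in GFAP-IL6 mice (log2 fold change -0.37, adjusted p = 0.0204, edgeR, 2 mice against 2), a choice of mice made after the data had been seen. These are also the WT mouse of lowest Sst and the GFAP-IL6 mouse of highest Sst, so leaving them out separates the genotypes by construction, and the call is no support for a difference. Without WT 3 alone the log2 fold change was -0.29 (adjusted p = 0.1996) and without GFAP-IL6 1 alone -0.25 (adjusted p = 0.481), and over 19 alternatives the adjusted p of Sst ran from 0.0113 to 0.999.

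**Figure D3:**
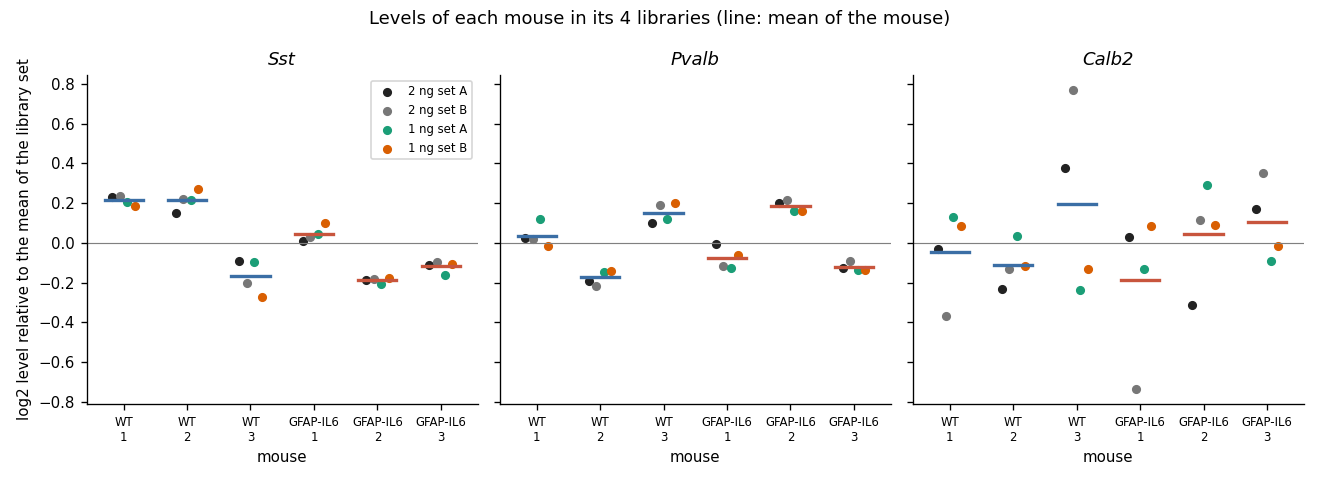
Log2 CPM of Sst, Pvalb and Calb2 in the 24 libraries, each relative to the mean of its library set, by mouse; points are libraries coloured by set, and lines are the means of the 4 libraries of a mouse (blue, WT; red, GFAP-IL6). The 4 libraries of a mouse lie together for Sst and Pvalb, with an SD of 0.052 and 0.049, and apart for Calb2, with an SD of 0.33.

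Most of these genes differed between the 2 ng and the 1 ng libraries made from the same RNA. With the sets summed and the amounts compared inside each mouse, edgeR with the mouse in the model called 4462 of 13389 genes (33.3%) at an adjusted p under 0.05, and 7 of the 10. With 2 ng, Gad1 (log2 fold change 0.36, SE 0.026), Npy (0.198, SE 0.016) and Vip (0.13, SE 0.033) rose, and Calb2 (-0.71, SE 0.11), Lhx6 (-0.61, SE 0.15), Slc32a1 (-0.31, SE 0.059) and Pvalb (-0.15, SE 0.023) fell. Gad2 (0.079), Sst (0.024) and Cck (-0.029) did not pass, with adjusted p of 0.140, 0.289 and 0.0592 in edgeR's test; Gad2 passed without GFAP-IL6 1 (0.11, adjusted p = 0.0421) and Cck without WT 3 (-0.033, adjusted p = 0.0151). Calb2 was at 8.66 ± 2.31 CPM with 2 ng and at 13.6 ± 1.22 CPM with 1 ng, and Slc32a1 at 33.4 ± 2.28 and 41.0 ± 6.13 CPM (SD, n = 6 mice). Gad1, Npy, Slc32a1, Pvalb and Lhx6 moved one way in 6 of 6 mice, and Vip and Calb2 in 5 of 6. The exact paired permutation test over mice, added after the data had been seen, gave two-sided p = 0.03125 for each of the first 5, the smallest it can give over 64 sign flips, and 0.0625 for Vip and Calb2. By the study's methods samples were pooled before the cDNA was amplified and tagmented, and the labels do not name the pools. If the 6 mice of a set shared a pool, the spread between mice does not include that between pools. The exact test and the counts of mice then do not count separate pools, and the contrast describes these libraries.

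Set A and set B differed for fewer of the genes. Between sets, cDNA amounts summed, edgeR called 3169 of 13581 genes (23.3%), and 4 of the 10: Gad1 was lower in set B (log2 fold change -0.42, SE 0.031), and Cck (0.19, SE 0.012), Npy (0.091, SE 0.017) and Pvalb (0.082, SE 0.027) were higher. Slc32a1 (0.18, SE 0.071) had an adjusted p of 0.0623, and it passed without WT 2 (0.21, adjusted p = 0.0493) and without GFAP-IL6 2 (0.23, adjusted p = 0.0308). Pvalb no longer passed without GFAP-IL6 3 (0.081, adjusted p = 0.0581), and the other 5 genes were between -0.040 and 0.11. Gad1, Npy and Cck moved one way in 6 of 6 mice, and Pvalb in 5 of 6. With the same exact paired test, p was 0.03125 for the first 3 and 0.0625 for Pvalb. The limit on shared pools given for the amount contrast holds for this contrast too.

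Gad1 stood out in 1 of the 4 sets. In 2 ng set A it lay between 256 and 305 CPM with a median of 287, and in 2 ng set B, 1 ng set A and 1 ng set B between 148 and 193, 172 and 196, and 150 and 183 CPM. The lowest of the 6 mice in 2 ng set A was thus above the highest library of the other sets, in both genotypes. In the fit of all 24 libraries, the amount contrast of Gad1 was 0.59 (SE 0.037, adjusted p = 6.4e-33) in set A and 0.088 (SE 0.039, adjusted p = 0.116) in set B. Its difference between sets, B minus A, was -0.502 (SE 0.054, adjusted p = 1.84e-14, edgeR). If the 6 mice of a set shared a pool, these p-values do not include the spread between pools. Gad2, the other decarboxylase, had medians of 71.1, 76.7, 68.6 and 68.8 CPM in 2 ng set A, 2 ng set B, 1 ng set A and 1 ng set B, and its difference was not called (0.12, SE 0.092, adjusted p = 0.473). The difference was called for 1450 of 12758 genes (11.4%) and for 4 of the 10, the others being Cck (0.23, SE 0.023), Npy (0.198, SE 0.032) and Sst (-0.11, SE 0.034). Cck went from -0.12 in set A to 0.11 in set B and both were called, so that its contrast over the summed sets was near 0. With set A alone 9 of the 10 genes were called (3684 of 12758 in all, 28.9%), and with set B alone 4 were (2138, 16.8%). Those 4 were Pvalb, Npy, Cck and Calb2. Gad1 and Sst (-0.0079, adjusted p = 0.885) were called by edgeR in set A but not in set B. So were Slc32a1 (-0.21, adjusted p = 0.080 in set B), Vip (0.12, adjusted p = 0.088) and Lhx6 (-0.36, adjusted p = 0.312). For Slc32a1, Vip and Lhx6 the difference between sets was not called (adjusted p = 0.538, 0.655 and 0.425, edgeR).

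**Figure D4:**
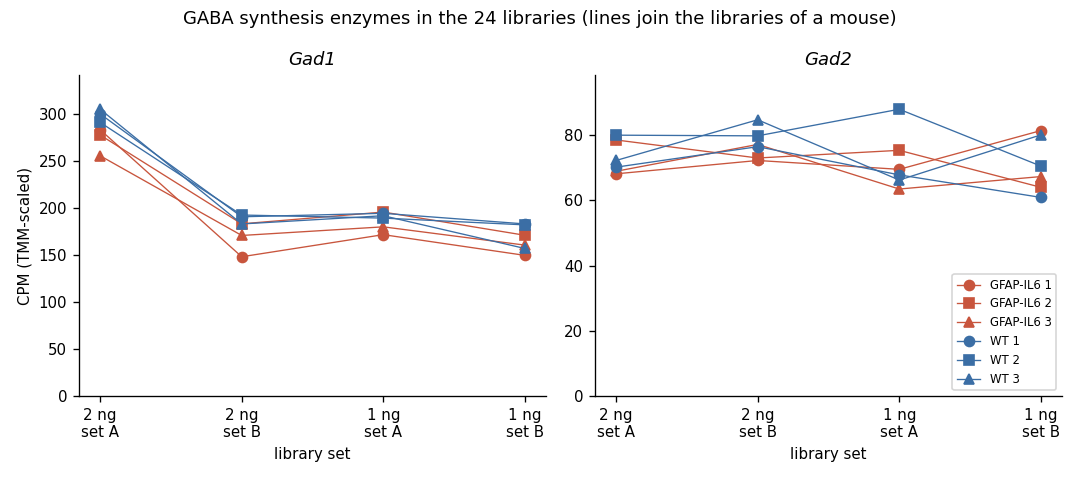
TMM-scaled CPM of Gad1 and Gad2 in the 24 libraries by set, with lines joining the libraries of a mouse (blue, WT; red, GFAP-IL6; marker shape, mouse number). Gad1 lies between 256 and 305 CPM in 2 ng set A and at 196 CPM or below in the other sets in all 6 mice, whereas Gad2 shows no such step.

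**Figure D5:**
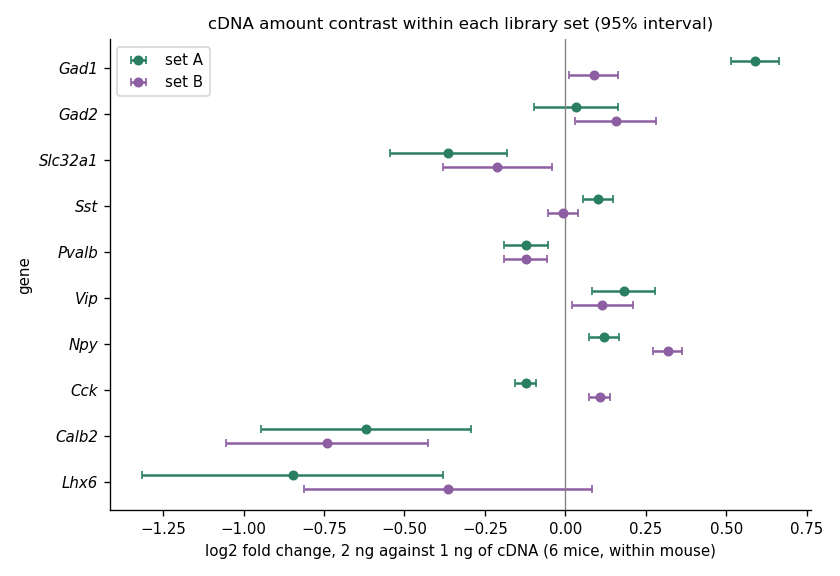
Log2 fold change with 2 ng against 1 ng inside each mouse within set A (green) and within set B (purple), with 95% intervals from the fit of 24 libraries. The intervals of the sets are apart for Gad1, Sst, Npy and Cck and overlap for the other 6 genes.

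Other genes listed for the same cells and pathway did not change by the test between genotypes either. In bulk tissue their levels cannot be assigned to interneurons alone. Of 15 interneuron transcription factors 14 could be tested and 0 were called (median log2 fold change -0.13) and Satb1, the most abundant, was between 82.2 and 101 CPM. Of 21 other markers of interneuron types 0 of 21 tested were called (median -0.11). Lamp5, listed here for neurogliaform cells, was between 359 and 463 CPM, and Calb1, the calbindin gene, between 182 and 262. Cxcl14 was between 177 and 197 in WT and between 165 and 172 in GFAP-IL6 mice (adjusted p = 0.655, edgeR), with no overlap. Of 13 other neuropeptide precursors 12 were tested and 0 were called (median -0.036), with Penk, Tac1 and Cort the most abundant; Cort, a relative of Sst, had a log2 fold change of -0.071. Of 11 proteins that process and store peptides 0 of 11 tested were called (median -0.041), and the most abundant, the carboxypeptidase Cpe, was between 2835 and 3000.5 CPM in WT and between 3031 and 3213 CPM in GFAP-IL6 mice (adjusted p = 0.833, edgeR), also with no overlap. The 12 receptors of these peptides gave 8 that could be tested and 0 called (median -0.073), of which the cholecystokinin receptor Cckbr was the most abundant, between 66.7 and 88.8 CPM. For 9 genes of GABA transport and metabolism, all tested, 0 were called (median -0.036); Glul, the glutamine synthetase gene, was between 217 and 266 CPM. Counts of 0 in lists of these sizes are near what the background of 1.80% gives. Cxcl14 and Cpe were not alone in having no overlap. Sox6 (log2 fold change 0.61, adjusted p = 0.199, edgeR) and Scg3 (0.11) were also higher in every GFAP-IL6 mouse. Nxph1 (-0.25, adjusted p = 0.360, edgeR), Kcnc2 (-0.12), Sstr1 (-0.35) and Abat (-0.15) were lower in every one. The share of all genes without overlap was not computed, so these are not read as differences.

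Markers of some other cells moved between the same mice, and those of others did not. Excitatory neuron markers (13 tested) and general neuron markers (10 tested) had 0 called, with medians of -0.043 and -0.024. Oligodendrocyte markers (5 tested, median -0.136) also had 0 called. So did markers of thalamus, hypothalamus and olfactory bulb (10 tested, median 0.24). Of 8 microglia markers 7 rose in GFAP-IL6 mice, among them Aif1 (log2 fold change 1.22), C1qa (1.39) and Cd68 (0.88), and their summed level was 238 to 260.5 CPM in WT and 368 to 478 CPM in GFAP-IL6 mice. Of 7 astrocyte markers Gfap rose, and of 5 endothelial markers the receptor Flt1 (0.70) and the glucose transporter Slc2a1 (0.58) rose. Of 10 striatal markers tested Pde10a rose (0.65), while 8 of the 10 had a log2 fold change below 0 and the median was -0.24. The summed level of that list was 334 to 580 CPM in WT and 353 to 419 CPM in GFAP-IL6 mice. The 5 choroid plexus markers summed to 109 to 4088 CPM in WT and 82.2 to 757 CPM in GFAP-IL6 mice. Their part in the levels of the interneuron genes was not tested.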

How the data were processed

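Reads were trimmed of poly(A) by the authors, then aligned with STAR 2.4 (mm10) and assigned to GENCODE genes by featureCounts; a strand setting was not given in the sources used here. The authors deposited unnormalized counts of 33000 genes in 24 libraries, with gene lengths. Genes were joined by Ensembl identifier, and positions come from GENCODE M21 on mm10.

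Counts were summed per mouse, and edgeR 4.0.16 (R 4.3.3) was used between genotypes (TMM, filterByExpr, quasi-likelihood test, Benjamini-Hochberg over all genes tested). The study's methods name DESeq2; DESeq2 1.42.0 and limma 3.58.1 were alternatives. The contrasts of cDNA amount and library set had the mouse in the model. Exact permutation tests were two-sided, on log2(CPM + 0.5). Named genes were all 10 genes and, from other lists, genes at an adjusted p under 0.05 (at most 5) and the 3 of highest mean CPM; Penk, Snap25 and Ttr are among these, and Gfap and Il6 checked the labels. The genes, lists and tests were chosen with earlier results of these data known. Depth limits precision, and since the PCR products carried no molecular identifiers, counts are of reads and not of molecules. Simulated counts were used to check the summed genotype contrast and the cDNA amount contrast only. The planted changes were larger than the genotype differences of the 10 genes, so small differences were not covered. Alternatives were other scalings, filters, tests, library subsets, a replicate block, equal totals and leaving out mice. Calb2 has no entry in the promoter table used. Some genes that the rule for named genes selects are not reported here.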

Additional observations from a re-analysis of the deposited data

Results flagged for a closer look

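For 4 genes the contrast of 2 ng against 1 ng of cDNA differed between set A and set B in edgeR's test of the difference itself, on 24 libraries of 6 mice, which was added after the data had been seen. On the log2 scale, set B minus set A, the difference was -0.502 for Gad1 (adjusted p = 1.84e-14), -0.11 for Sst (adjusted p = 0.0173), 0.198 for Npy (adjusted p = 3.72e-07) and 0.23 for Cck (adjusted p = 4.91e-16). In set A Gad1 and Sst were higher with 2 ng in 6 of 6 mice and Cck lower in 6 of 6, and in set B Npy and Cck were higher in 6 of 6. Such a difference was called for 11.4% of all genes tested. If the 6 mice of a set shared a pool, these p-values do not include the spread between pools.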

How the results depend on the processing

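The count of called genes between genotypes, 0 of 10, was also 0 under all alternatives planned but one. In limma-voom on 24 libraries with the mouse as a random block, 1 of 10 was called, Sst (log2 fold change -0.22, adjusted p = 0.0113). That fit uses 1 correlation of libraries within a mouse for all genes, 0.238, and that of Sst itself in the same model was 0.87. The alternative without WT 3 and GFAP-IL6 1, chosen after the data had been seen, also called 1 of 10, Sst, and removes the 2 mice that overlap most in Sst. The replicate block called 0 of 10 and 215 genes in all. Same-numbered mice of the 2 genotypes had correlations of -0.049, -0.037 and -0.061, and mice of unlike number from -0.049 to 0.0996. These values gave no sign that the numbers pair the mice. With 3 mice per genotype they cannot exclude it. All genes called between genotypes, 263 in the summed libraries, were 453 with limma-voom, 462 without a filter, 81 with at least 10 counts in every library, where Calb2 and Lhx6 dropped out, and between 146 (without GFAP-IL6 replicate 3) and 321 with 1 mouse left out. Fold changes that were not called changed sign between genotypes: Calb2 to -0.139 with equal totals, Pvalb to 0.027 with 2 ng libraries alone and to 0.097 without WT 3 and GFAP-IL6 1, where Slc32a1, at -0.15 with all mice, was at 0.0098. Leaving out 1 mouse, Pvalb ran from -0.115 to 0.064 and Calb2 from -0.028 to 0.074.

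For the amount contrast 7 genes were called, and with genotype in place of the mouse 5, with Pvalb and Vip lost and 1714 genes called in all against 4462; DESeq2 called the same 7 and 2852 in all. In set B alone 4 were called, where Sst was at -0.0079 and Cck at 0.107, both of the other sign. For the library set contrast, 4 genes were called, and with genotype in place of the mouse 1, Gad1, with 1015 genes in all against 3169. Gad2 was at -0.0014 without a filter. With 1 mouse left out, the set contrast ran from -0.025 to 0.049 for Gad2, from -0.034 to 0.0018 for Sst, from -0.033 to 0.0077 for Vip and from -0.099 to 0.068 for Lhx6. In the same fits, 3 to 5 of the genes were called. Depth limits Lhx6 and Calb2 most.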
